A study of Mus musculus with 47 samples.

Results

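Foxo1, Foxo3 and Foxo4 (forkhead transcription factors), Insr (the insulin receptor), Irs1 and Irs2 (its substrates), Txnip (thioredoxin-interacting protein), Trib1 (a tribbles pseudokinase) and Klf2 (a Krüppel-like transcription factor) form a set of 9 genes around insulin signalling. They were followed in muscle stem cells, the satellite cells of skeletal muscle, over 6 times of day on 2 diets. A gene was represented by the probe set annotated to its symbol with the highest mean. Of the 9 genes, 8 had a listed probe set among the 17097 genes of the array with a single symbol, and Irs2 was not analysed here. All 8 lay above the filter on low means that left 10258 genes tested.

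The cells came from wild-type female C57B6/J mice on a high-fat diet (23 mice) or the matching control diet (24 mice), fed freely for 7 weeks from 8 weeks of age and sampled at 15 weeks. Each diet had 6 zeitgeber times (ZT, by convention hours after lights on), 4 h apart, and groups held 4 mice each, with 3 in the high-fat ZT16 group as analysed here. Mice of both diets at a time were collected on a single day, so a diet contrast at a time lies within a day, while time and collection day cannot be told apart within a diet. Values are the authors' log2 expression values, 1 array per mouse, so a difference of 1 is a doubling, and levels of different probe sets cannot be set against each other.

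The labelled cell type was checked against markers. Of 9 satellite cell markers on the array all were above the filter, among them Pax7 with a mean of 10.92, whereas 7 of 9 immune markers, 4 of 10 endothelial markers and 3 of 5 adipocyte markers were below it. Of 7 fibro-adipogenic and fibroblast markers 2 were below it (Pdgfra at 4.37 and Lum at 5.07) and 5 above it, up to Dpt at 11.38, and of 10 mature myofibre markers 9 were above it, the highest being Atp2a1 at 8.33. All 5 smooth muscle and pericyte markers, such as Acta2 (10.93), and all 5 Schwann cell markers, such as Mbp (9.22), were also above it. Arrays had medians between 5.86 and 5.94 on the log2 scale, and the mean correlation of each array with its group lay between 0.969 and 0.987. Control ZT20 replicate 2 stood apart, with a mean endothelial marker level of 7.95 on the log2 scale, against 6.18 to 6.35 in the other control mice at ZT20. Its immune marker mean was also high (6.23, against 5.21 to 5.25), as was its fibro-adipogenic mean (9.44, against 8.62 to 8.71). Of 104 results on the 8 genes, 0 changed their call without that mouse.

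Insulin binds its receptor, the receptor phosphorylates IRS proteins, and these recruit PI3-kinase and so activate the kinase AKT. AKT phosphorylates FOXO factors, which then leave the nucleus. When insulin is low, nuclear FOXO activates genes of stress resistance, cell cycle arrest and protein breakdown, and also Insr and Irs2 themselves. In satellite cells FOXO factors are known for their part in keeping the cells quiescent. TXNIP, an arrestin-like protein, binds thioredoxin and lowers glucose uptake, and its gene responds to glucose. KLF2 is known for quiescence of lymphocytes, where FOXO1 activates its gene, and TRIB1 brings C/EBP factors to the ubiquitin ligase COP1.

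RefSeq promoters (GRCm38.p6, 250 bases before to 50 after the gene's start) were listed for 6 of the 9 genes. They were searched on both strands for the FOXO core GTAAACA, the insulin response core AAAACAA and the E-box CACGTG. No matches of different motifs overlapped. The promoters of Txnip, Foxo3 and Klf2 are shown because these genes had the clearest diet differences at ZT16, and that of Irs1 because it had a called rhythm on both diets. Capitals mark motif matches.
Txnip (chr3:96557707-96558006, plus strand): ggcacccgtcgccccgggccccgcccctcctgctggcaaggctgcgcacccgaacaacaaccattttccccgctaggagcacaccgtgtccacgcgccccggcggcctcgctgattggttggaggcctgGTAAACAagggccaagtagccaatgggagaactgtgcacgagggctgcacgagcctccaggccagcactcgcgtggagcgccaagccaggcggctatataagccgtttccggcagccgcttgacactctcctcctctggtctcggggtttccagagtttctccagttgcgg
Foxo3 (chr10:42276646-42276945, minus strand): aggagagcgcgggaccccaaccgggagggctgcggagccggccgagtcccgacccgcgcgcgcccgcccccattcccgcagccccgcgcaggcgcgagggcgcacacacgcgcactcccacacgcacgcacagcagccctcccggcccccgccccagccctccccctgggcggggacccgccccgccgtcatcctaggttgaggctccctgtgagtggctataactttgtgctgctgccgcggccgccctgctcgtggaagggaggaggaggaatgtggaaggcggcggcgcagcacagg
Klf2 (chr8:72318812-72319111, plus strand): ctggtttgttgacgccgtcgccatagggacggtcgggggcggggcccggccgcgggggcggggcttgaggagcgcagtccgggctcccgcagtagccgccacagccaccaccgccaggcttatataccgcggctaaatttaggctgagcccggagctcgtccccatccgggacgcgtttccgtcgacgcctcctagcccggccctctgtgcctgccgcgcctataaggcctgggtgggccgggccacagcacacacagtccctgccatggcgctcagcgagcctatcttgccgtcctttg
Irs1 (chr1:82291390-82291689, minus strand): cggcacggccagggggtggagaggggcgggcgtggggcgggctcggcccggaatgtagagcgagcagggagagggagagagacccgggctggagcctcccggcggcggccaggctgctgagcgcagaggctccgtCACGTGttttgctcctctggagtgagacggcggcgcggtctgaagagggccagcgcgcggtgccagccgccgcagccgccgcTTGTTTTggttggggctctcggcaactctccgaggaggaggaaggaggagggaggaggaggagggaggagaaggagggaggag
The Txnip promoter held the FOXO core on the plus strand, 121 to 115 bases before the start, a match that 3.65% of 32851 promoters of this length carry. In the Irs1 promoter the E-box, present in 7.15% of promoters, lay 115 to 110 bases before the start, and the insulin response core, present in 9.02%, lay on the opposite strand 33 to 27 bases before it. Irs2 also held both, the E-box at -44 to -39 and the insulin response core at -38 to -32. None of these letters was found in the windows of Foxo1, Foxo3 and Klf2. A match is a string of letters and was not tested as a binding site.

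At ZT16, 5 of the 8 genes were higher on the high-fat diet (Txnip, Foxo3, Klf2, Insr and Foxo1) and 0 were lower. Of all 10258 genes, 13.3% were called at ZT16, and 6.13% were called as higher. The median difference of the 8 genes was 0.49, against -0.02 over all genes tested. The set was chosen with earlier results of these data known, so these shares are a description. At ZT0 Insr alone of the 8 was called, as lower on the high-fat diet (3.56% of all genes called, 2.23% as lower), and at ZT4, ZT8, ZT12 and ZT20 none of the 8 passed (0.312%, 1.78%, 0.858% and 0.819% of all genes called). At an unadjusted p under 0.05, 0 of the 8 passed at ZT4 (1261 of all 10258 genes), Klf2 passed at ZT8 (1772 of all genes) and ZT12 (1481), and Foxo1, Foxo3, Txnip and Trib1 passed at ZT20 (1399). Tests were limma's, adjusted by Benjamini-Hochberg over all genes with a threshold of 0.05, and values after ± are standard errors unless SD is named.

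**Figure D1:**
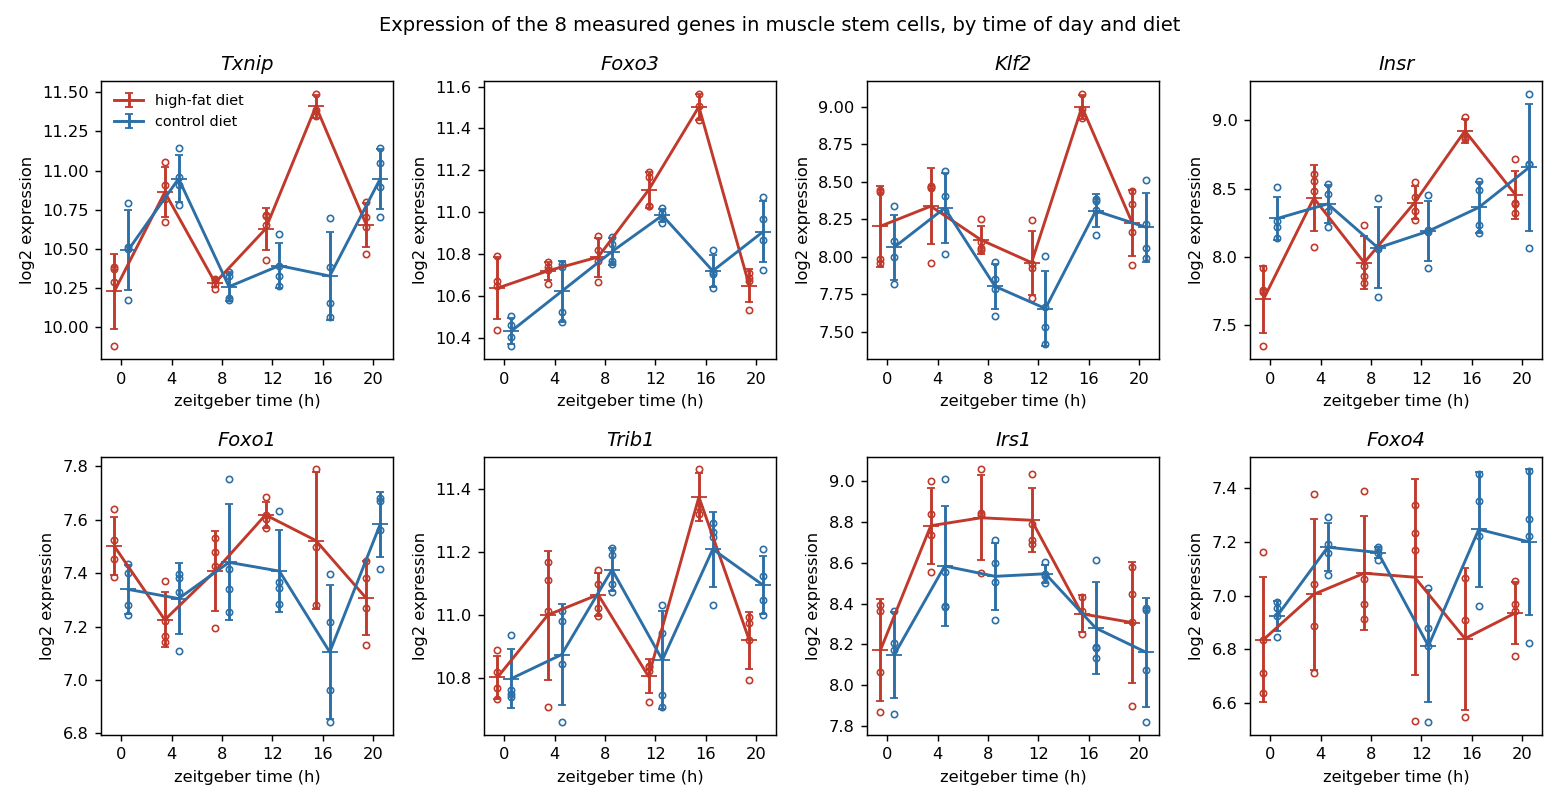
Log2 expression (y axis) of the 8 measured genes against zeitgeber time in hours (x axis), high-fat mice in red and set to the left, control mice in blue. Circles are single mice, lines join group means, and bars are SD (4 mice per group, 3 at high-fat ZT16). At ZT16 the high-fat mice of Txnip (11.35 to 11.49), Foxo3 (11.44 to 11.57), Klf2 (8.93 to 9.09), Insr and Trib1 lie above every control mouse, and Irs1 follows a similar plateau from ZT4 to ZT12 on both diets.

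Insr (probe set 1434446_PM_at, chromosome 8, 3150922 to 3279649 in GRCm38.p6) encodes the receptor tyrosine kinase. At ZT16 it read 9.02, 8.87 and 8.88 in high-fat mice, against 8.55, 8.23, 8.49 and 8.17 in control mice. Every high-fat mouse lay above every control mouse, and the difference was 0.56 ± 0.17 (adjusted p = 0.0270), which is 1.47-fold. At ZT0 the order was the opposite, with 7.34, 7.74, 7.92 and 7.75 in high-fat mice, against 8.51, 8.14, 8.26 and 8.22 in control mice. Here the high-fat mice all lay below the controls, and the difference was -0.59 ± 0.16 (adjusted p = 0.0323). Over the day, Insr in high-fat mice averaged 7.69 ± 0.24 at ZT0, 8.43 ± 0.24 at ZT4, 7.96 ± 0.19 at ZT8, 8.40 ± 0.12 at ZT12, 8.92 ± 0.09 at ZT16 and 8.46 ± 0.18 at ZT20 (SD). On the control diet it averaged 8.28 ± 0.16 at ZT0, 8.39 ± 0.14 at ZT4, 8.07 ± 0.30 at ZT8, 8.19 ± 0.22 at ZT12, 8.36 ± 0.19 at ZT16 and 8.66 ± 0.46 at ZT20 (SD). On the high-fat diet the ZT16 mice did not overlap those of ZT20, the next time in the order, nor did ZT12 overlap ZT8, whereas on the control diet each time overlapped its neighbour in the order. The range between the highest and lowest time was 1.23 on the high-fat diet (adjusted p = 9.20e-06) and 0.59 on the control diet (adjusted p = 0.0518), in F tests over 6 times. The other probe sets of Insr gave 0.61 ± 0.13 (1421380_PM_at, adjusted p = 0.00153) and 0.61 ± 0.24 (1450225_PM_at, adjusted p = 0.0806) at ZT16. At ZT0 they gave -0.33 ± 0.12 (adjusted p = 0.125) and -0.02 ± 0.22 (adjusted p = 0.982), so only the highest-mean probe set was called there. The ZT16 call was lost when any of high-fat ZT16 replicates 1, 2 or 3 or control ZT16 replicates 2 or 4 was left out, with differences of 0.50 to 0.59 and adjusted p of 0.0532 to 0.108. That at ZT0 was lost without control ZT0 replicate 1, 3 or 4 or high-fat ZT0 replicate 1, 2 or 4, with differences of -0.48 to -0.61 and adjusted p of 0.0541 to 0.136.

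Irs1 (1423104_PM_at, chromosome 1, 82233105 to 82291439) encodes the docking protein that links the receptor to PI3-kinase. It was high from ZT4 to ZT12 on both diets and did not differ by diet at any time beyond the test's threshold. On the high-fat diet it averaged 8.17 ± 0.25 at ZT0, 8.78 ± 0.19 at ZT4, 8.82 ± 0.21 at ZT8, 8.81 ± 0.16 at ZT12, 8.35 ± 0.09 at ZT16 and 8.31 ± 0.30 at ZT20 (SD). On the control diet it averaged 8.15 ± 0.21 at ZT0, 8.58 ± 0.30 at ZT4, 8.53 ± 0.16 at ZT8, 8.55 ± 0.04 at ZT12, 8.28 ± 0.23 at ZT16 and 8.16 ± 0.27 at ZT20 (SD). On the high-fat diet the plateau mice of ZT4 did not overlap those of ZT16, the next in the order. At ZT16 Irs1 read 8.25, 8.43 and 8.37 in high-fat mice, against 8.19, 8.62, 8.13 and 8.18 in control mice, a difference of 0.07 ± 0.16 (adjusted p = 0.825) with a 95% interval of -0.26 to 0.40. Averaged over the 6 times the diet difference was 0.16 ± 0.06 (adjusted p = 0.0779), and it passed without control ZT16 replicate 2, without control ZT4 replicate 3 or without high-fat ZT20 replicate 4 (0.18 to 0.19, adjusted p 0.0335 to 0.0447). At ZT12 the high-fat mice (8.69 to 9.03) all lay above the control mice (8.50 to 8.61), although the difference of 0.26 ± 0.15 did not pass (adjusted p = 0.428).

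Foxo3 (1450236_PM_at, chromosome 10, 42181845 to 42276695), known for maintaining quiescent stem cells, had the smallest p of the 8 genes at ZT16 and ranked 3 of 10258 there. It read 11.57, 11.44 and 11.51 in high-fat mice, against 10.71, 10.70, 10.82 and 10.64 in control mice. The groups were far apart, and the difference was 0.78 ± 0.07 (adjusted p = 8.44e-10), which is 1.72-fold. In high-fat mice Foxo3 averaged 10.64 ± 0.15 at ZT0, 10.72 ± 0.04 at ZT4, 10.79 ± 0.09 at ZT8, 11.11 ± 0.09 at ZT12, 11.50 ± 0.06 at ZT16 and 10.65 ± 0.08 at ZT20 (SD). On the control diet it averaged 10.43 ± 0.06 at ZT0, 10.62 ± 0.14 at ZT4, 10.81 ± 0.06 at ZT8, 10.98 ± 0.03 at ZT12, 10.72 ± 0.07 at ZT16 and 10.91 ± 0.15 at ZT20 (SD). The high-fat mice of ZT16 lay above all of ZT12, and those of ZT12 above all of ZT8, while on the control diet neighbouring times in the order overlapped. The highest mean thus stood at ZT16 on the high-fat diet and at ZT12 on the control diet. At ZT20 the high-fat mice read 10.53, 10.71, 10.68 and 10.67, all below the control mice at 10.87, 10.97, 11.07 and 10.73. That difference of -0.26 ± 0.07 lay just short of the threshold (adjusted p = 0.0518). The other probe sets of Foxo3 were also lower there, at -0.48 ± 0.09 (1434831_PM_a_at, adjusted p = 0.00440) and -0.42 ± 0.09 (1434832_PM_at, adjusted p = 0.0168), and higher at ZT16 by 0.84 ± 0.10 (adjusted p = 3.55e-07) and 0.97 ± 0.10 (adjusted p = 1.72e-08). Leaving out control ZT20 replicate 2, the mouse with high endothelial markers, gave -0.24 at ZT20 (adjusted p = 0.121), and leaving out control ZT20 replicate 4 gave -0.32 (adjusted p = 0.0123). Foxo3 also passed at ZT20 without any 1 of 8 mice of other times (adjusted p 0.0349 to 0.0497), and at ZT0 without high-fat ZT0 replicate 2 (0.27, adjusted p = 0.0256), against 0.20 ± 0.07 (adjusted p = 0.0766) with all mice.

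Foxo1 (1456529_PM_at, chromosome 3, 52268337 to 52350109) is the family member best known for glucose metabolism. At ZT16 it read 7.50, 7.79 and 7.28 in high-fat mice, against 7.40, 6.96, 7.22 and 6.84 in control mice. The groups overlapped, because control replicate 1 lay above high-fat replicate 3, and the difference was 0.42 ± 0.12 (adjusted p = 0.0190), which is 1.34-fold. Control ZT16 was the lowest of the 6 control times (mean 7.10), and high-fat ZT16 (7.52) was second to ZT12 (7.62) among the high-fat times. The call was lost without control ZT16 replicate 2 or 4 or high-fat ZT16 replicate 1 or 2 (0.28 to 0.43, adjusted p 0.0505 to 0.167), and when only the ZT16 mice were fitted (adjusted p = 0.113). Foxo4 (1456753_PM_at, chromosome X, 101254261 to 101260873), another factor under AKT control, read 6.55, 6.91 and 7.06 in high-fat mice, against 7.35, 7.22, 7.45 and 6.96 in control mice. It was the only one of the 8 with a negative difference at ZT16, -0.41 ± 0.16, which did not pass (adjusted p = 0.0894), and the groups overlapped. Foxo4 had no called difference by diet or time with all mice, and its group means ran from 6.81 to 7.25. Its differences over time on the control diet passed without control ZT16 replicate 4, control ZT20 replicate 4 or high-fat ZT12 replicate 2 (lowest adjusted p 0.0343), its interaction of diet and time without the last of these (adjusted p = 0.0472), and its ZT16 difference with array weights (adjusted p = 0.0428). Its other probe set lay below the filter.

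Txnip (1415997_PM_at, chromosome 3, 96557957 to 96561857) had the largest difference of the 8 genes at ZT16. It read 11.49, 11.35 and 11.39 in high-fat mice, against 10.15, 10.70, 10.06 and 10.38 in control mice. No mouse overlapped, and the difference was 1.09 ± 0.13 (adjusted p = 2.49e-07), which is 2.12-fold with a 95% interval of 0.83 to 1.35 on the log2 scale. In high-fat mice Txnip averaged 10.23 ± 0.24 at ZT0, 10.86 ± 0.16 at ZT4, 10.28 ± 0.03 at ZT8, 10.63 ± 0.14 at ZT12, 11.41 ± 0.07 at ZT16 and 10.65 ± 0.14 at ZT20 (SD). On the control diet it averaged 10.49 ± 0.25 at ZT0, 10.95 ± 0.15 at ZT4, 10.26 ± 0.09 at ZT8, 10.39 ± 0.14 at ZT12, 10.32 ± 0.28 at ZT16 and 10.95 ± 0.19 at ZT20 (SD). Both diets had high values at ZT4, but the other high time was ZT16 on the high-fat diet and ZT20 on the control diet, and at ZT20 the difference was -0.29 ± 0.12 (adjusted p = 0.243). High-fat ZT16 lay above all high-fat mice of ZT4, the next time in the order. The other probe set of Txnip (1415996_PM_at) was higher at ZT16 by 1.01 ± 0.18 (adjusted p = 0.000148).

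Klf2 (1448890_PM_at, chromosome 8, 72319062 to 72321654) read 8.98, 9.09 and 8.93 in high-fat mice, against 8.39, 8.38, 8.15 and 8.32 in control mice. The groups did not overlap, and the difference was 0.69 ± 0.16 (adjusted p = 0.00246), which is 1.62-fold. In high-fat mice Klf2 averaged 8.20 ± 0.27 at ZT0, 8.34 ± 0.25 at ZT4, 8.11 ± 0.10 at ZT8, 7.96 ± 0.21 at ZT12, 9.0 ± 0.08 at ZT16 and 8.23 ± 0.22 at ZT20 (SD). On the control diet it averaged 8.07 ± 0.22 at ZT0, 8.33 ± 0.23 at ZT4, 7.80 ± 0.15 at ZT8, 7.66 ± 0.25 at ZT12, 8.31 ± 0.11 at ZT16 and 8.20 ± 0.23 at ZT20 (SD). The high-fat ZT16 mice lay above all high-fat mice of ZT4, the next time in the order, and both diets were lowest at ZT12. At ZT8 the high-fat mice (8.04 to 8.25) also lay above the control mice (7.61 to 7.97), though the difference of 0.31 ± 0.14 did not pass (adjusted p = 0.260). Trib1 (1424880_PM_at, chromosome 15, 59648654 to 59657099) read 11.34, 11.46 and 11.32 in high-fat mice, against 11.29, 11.03, 11.25 and 11.26 in control mice. All high-fat mice lay above the control mice by a small margin, and the difference of 0.17 ± 0.08 did not pass (adjusted p = 0.192). Its second probe set gave 0.17 ± 0.10 (1424881_PM_at, adjusted p = 0.280). Trib1 was highest at ZT16 on both diets, with means of 11.37 on the high-fat diet and 11.21 on the control diet.

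Among the 8 genes, 5 had diets that did not overlap at ZT16, all with the high-fat mice higher (Txnip, Foxo3, Klf2, Insr and Trib1), where 13.3% of all genes were so. Such separation occurred for Insr at ZT0 (lower, 6.16% of all genes), Klf2 at ZT8 (higher, 3.96%), Foxo3 and Irs1 at ZT12 (higher, 4.19%), and Foxo3 and Trib1 at ZT20 (lower, 4.04%). At ZT4 the diets overlapped for all 8 genes, while 5.38% of all genes did not overlap there in 1 direction or the other.

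**Figure D2:**
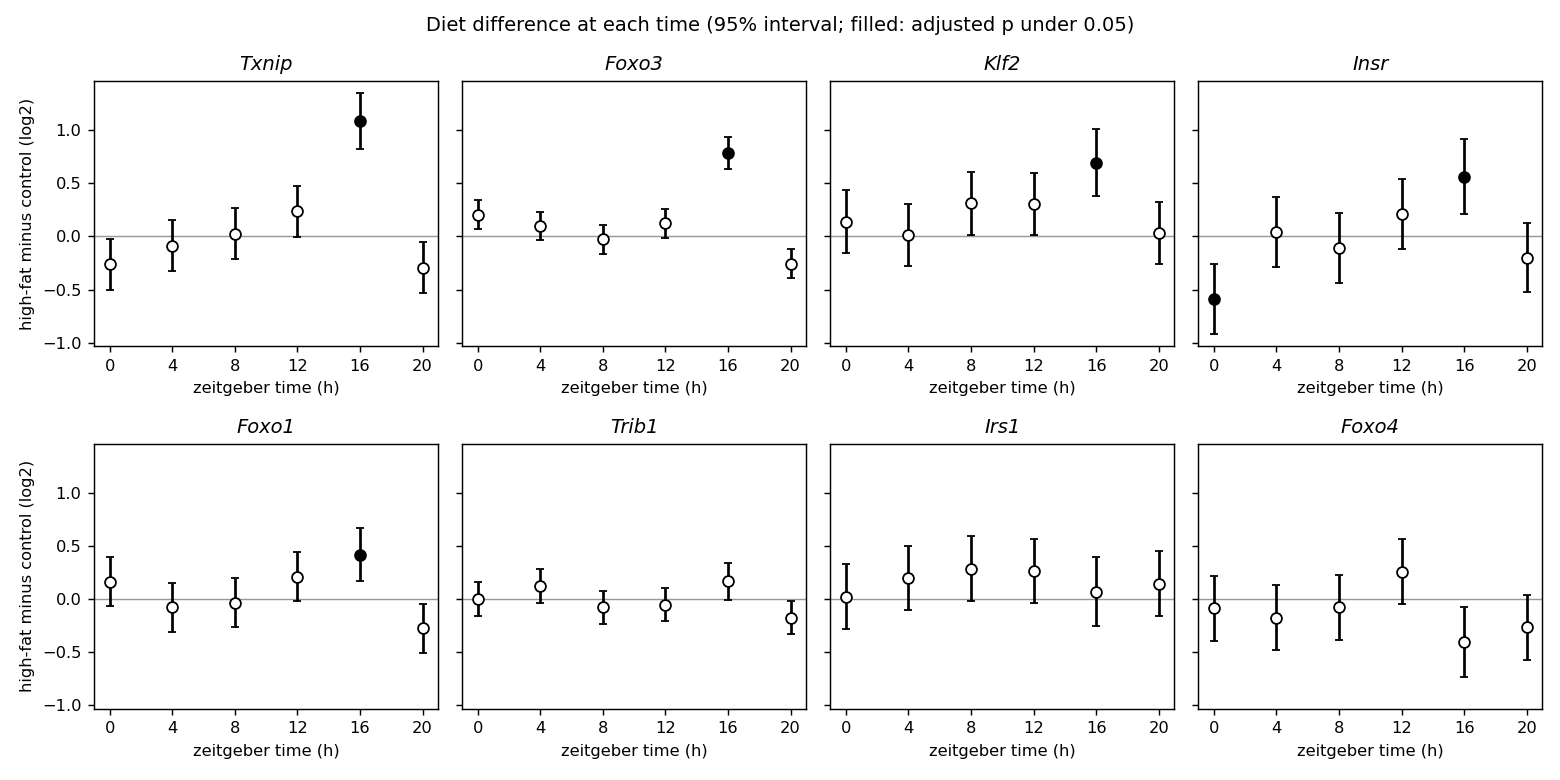
High-fat minus control difference (log2, y axis) at each zeitgeber time (x axis) for the 8 genes, with 95% intervals from limma and filled points where the adjusted p was under 0.05. Filled points stand at ZT16 for Txnip (1.09), Foxo3 (0.78), Klf2 (0.69), Insr (0.56) and Foxo1 (0.42), and at ZT0 for Insr (-0.59).

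**Figure D3:**
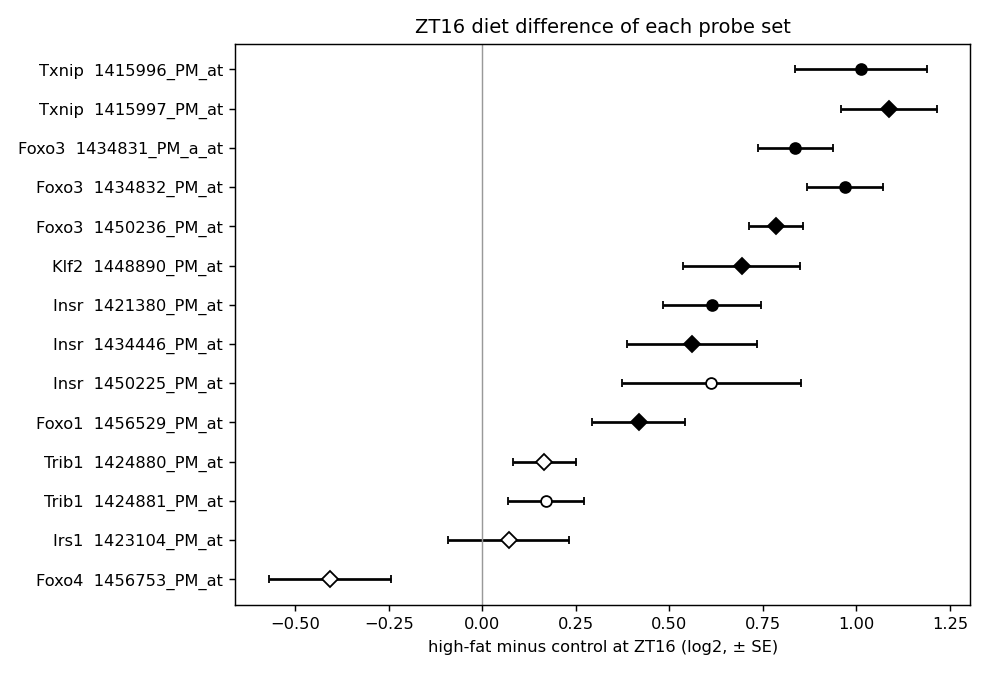
High-fat minus control difference at ZT16 (log2, x axis, bars are SE) of the 14 probe sets of these genes above the filter, filled where the adjusted p over probe sets was under 0.05 and diamonds for the highest-mean probe set. All probe sets of Txnip, Foxo3 and Insr lie between 0.56 and 1.09, and those of Trib1 at 0.17.

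Averaged over the 6 times, Foxo3 (0.15 ± 0.03, adjusted p = 0.000332) and Klf2 (0.25 ± 0.06, adjusted p = 0.00544) were higher on the high-fat diet, 2 of 8 genes, where 11.5% of all genes were called, 4.7% as higher and 6.8% as lower. Without the ZT16 mice these averages were 0.03 for Foxo3 (adjusted p = 0.667) and 0.16 for Klf2 (adjusted p = 0.182), and 0 of the 8 genes passed. Txnip averaged 0.12 ± 0.05 (adjusted p = 0.115) and -0.08 without ZT16 (adjusted p = 0.412), and it passed with all times when control ZT16 replicate 2 was left out (0.14, adjusted p = 0.0461).

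Whether the diet difference changed with time was tested as an interaction of 5 coefficients. It passed for Foxo3 (adjusted p = 2.37e-07), Txnip (adjusted p = 1.01e-05), Insr (adjusted p = 0.0145) and Foxo1 (adjusted p = 0.0329), 4 of 8 genes, with 12.4% of all genes called. The difference of Txnip spanned 1.38 between its highest and lowest time, that of Insr 1.15, that of Foxo3 1.04 and that of Foxo1 0.69. Klf2 (adjusted p = 0.122), Trib1 (0.151), Foxo4 (0.220) and Irs1 (0.849) did not pass, though Trib1 did without high-fat ZT4 replicate 4 (adjusted p = 0.0372). Without the ZT16 mice, Foxo3 still passed (adjusted p = 0.0361), with 0.46 between its highest and lowest difference, and the other 7 did not. The interaction of Foxo1 was lost without any 1 of 7 mice, control ZT16 replicates 2 and 4, control ZT20 replicates 1 and 3, high-fat ZT16 replicates 1 and 2 and high-fat ZT20 replicate 1 (adjusted p 0.0543 to 0.0770).

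Within a diet, levels differed between times for 7 of 8 genes on the high-fat diet (40.1% of all genes called) and for 6 of 8 on the control diet (36.3%). Foxo4 passed on neither diet (adjusted p = 0.519 high-fat, 0.0790 control), and Insr missed narrowly on the control diet (adjusted p = 0.0518), where it passed without any 1 of 9 mice, control ZT20 replicate 4 among them (range 0.79, adjusted p = 0.00338). The range between highest and lowest time was 1.18 (high-fat) and 0.69 (control) for Txnip, 1.04 (high-fat) and 0.67 (control) for Klf2, 0.87 (high-fat) and 0.55 (control) for Foxo3, 0.65 (high-fat) and 0.43 (control) for Irs1, and 0.57 (high-fat) and 0.41 (control) for Trib1. Without the ZT16 mice, the high-fat range was 0.77 for Insr, 0.63 for Txnip, 0.47 for Foxo3 and 0.26 for Trib1, all of which still passed, and 0.65 for Irs1 as before. That of Klf2 was then 0.38 and did not pass (adjusted p = 0.296), nor did the control range of Foxo1 (0.28, adjusted p = 0.170). Foxo1 spanned 0.39 on the high-fat diet and 0.48 on the control diet, and its high-fat call (adjusted p = 0.0414) was lost in 12 of 47 fits that left out a mouse each, namely any mouse of high-fat ZT12, replicates 1 to 3 of ZT4, 2 and 4 of ZT0, 1 of ZT16 or 1 and 3 of ZT20. Its control call was lost without control ZT16 replicate 2 or 4 (adjusted p = 0.0718 and 0.0944), and that of Irs1 without control ZT0 replicate 2 or control ZT20 replicate 4 (0.0592 and 0.0533).

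A 24 h cosine was called for Foxo3, Irs1 and Insr on the high-fat diet (3 of 8, 16.9% of all genes) and for Foxo3 and Irs1 on the control diet (2 of 8, 10.5%). In high-fat mice the Foxo3 cosine crested at 13.9 ± 0.583 h and its amplitude was 0.34 ± 0.05 (adjusted p = 5.31e-05), and in control mice it crested at 13.1 ± 1.01 h with 0.19 ± 0.05 (adjusted p = 0.0272). The other Foxo3 probe sets, 1434831_PM_a_at and 1434832_PM_at, passed in high-fat mice (0.35 and 0.33, adjusted p = 0.000675 and 0.00203). In control mice neither of them passed (0.17 and 0.09, adjusted p = 0.137 and 0.587). The crest of Irs1 came earlier in the cycle, at 8.70 ± 0.711 h in high-fat mice (amplitude 0.35 ± 0.06, adjusted p = 0.000405) and 8.42 ± 0.992 h in control mice (amplitude 0.24 ± 0.06, adjusted p = 0.0244). For Insr the amplitude was 0.35 ± 0.09 in high-fat mice, with its crest at 15.3 ± 0.991 h (adjusted p = 0.0224), and 0.21 ± 0.09 in control mice, which did not pass (adjusted p = 0.237). No difference of rhythm between the diets passed for Foxo3 (adjusted p = 0.375), Irs1 (0.675) or Insr (0.0835).

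Txnip was the only one of the 8 with a called rhythm difference (adjusted p = 0.0225, 2.11% of all genes called). Its other probe set (1415996_PM_at) had a difference of the same size, 0.46, but did not pass (adjusted p = 0.0624). In high-fat mice the cosine of the highest-mean Txnip probe set crested at 15.9 ± 1.31 h with an amplitude of 0.27 ± 0.10 (adjusted p = 0.105). In control mice it crested at 23.7 ± 1.40 h with an amplitude of 0.25 ± 0.09 (adjusted p = 0.144), so neither rhythm passed by itself, although the high-fat rhythm did without high-fat ZT4 replicate 1 (0.34, adjusted p = 0.0329) or with array weights (0.35, adjusted p = 0.0185). Without the ZT16 mice the high-fat amplitude of Txnip was 0.03 (adjusted p = 0.975). The difference was lost without high-fat ZT16 replicate 3 (adjusted p = 0.0553) and without all ZT16 mice (adjusted p = 0.146). With the collection day as a random block, Foxo3 and Irs1 kept their high-fat rhythms, Insr lost its own (adjusted p = 0.0899), and 0 of the 8 genes were called on the control diet. The control rhythm of Foxo3 was also lost without control ZT0 replicate 2, 3 or 4 or control ZT12 replicate 2 (adjusted p 0.0505 to 0.0652), that of Irs1 without control ZT20 replicate 4 (0.0661), and the high-fat rhythm of Insr without any of the 3 high-fat ZT16 mice (0.0564 to 0.0744). Without all ZT16 mice the high-fat amplitude of Insr was 0.21 and did not pass (adjusted p = 0.420), that of Foxo3 was 0.22 and passed (adjusted p = 0.00109), and Klf2 had a called control rhythm (0.29, adjusted p = 0.0169), against 0.23 ± 0.09 with all mice (adjusted p = 0.171).

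**Figure D4:**
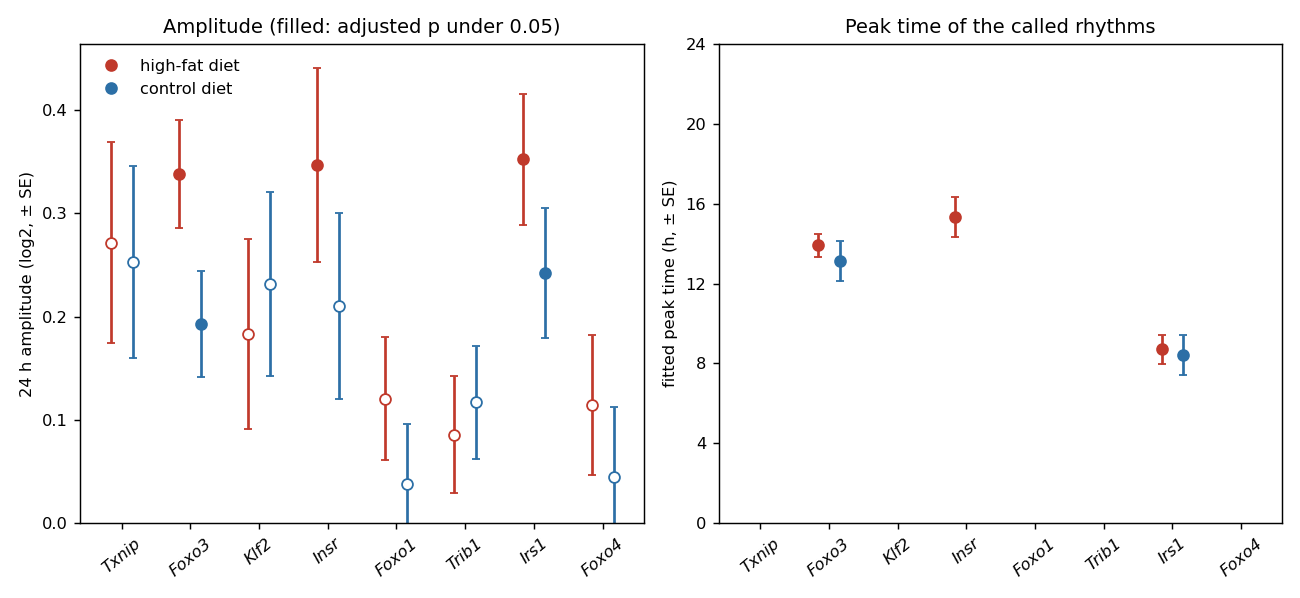
Left, 24 h amplitude (log2, y axis, bars are SE) of the 8 genes (x axis) on the high-fat diet (red, left of each pair) and the control diet (blue), filled where the adjusted p was under 0.05. Right, fitted peak time in hours (bars are SE) of the called rhythms. The crest lies at 13.9 h (high-fat) and 13.1 h (control) for Foxo3, at 8.70 h (high-fat) and 8.42 h (control) for Irs1, and at 15.3 h (high-fat) for Insr.

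The genes around these 8 were counted in 9 lists of 141 genes, of which 115 were tested. These lists were chosen with earlier results of these data known, so their shares are a description and not independent support. At ZT16, 24 of the 115 were higher on the high-fat diet (20.9%) and 7 were lower (6.09%), against 6.13% and 7.13% of all genes. Among 20 FOXO targets 5 were higher and 1 was lower, with a median of 0.24 against -0.02 over all genes. Sesn1, a stress-induced inhibitor of mTOR complex 1, was higher by 1.16 ± 0.17 (adjusted p = 8.96e-06), Pdk4, which turns pyruvate away from oxidation, by 0.48 ± 0.11 (adjusted p = 0.00261), and Cat, the catalase gene, by 0.39 ± 0.10 (adjusted p = 0.00626). Cdkn1a, a cell cycle inhibitor, was lower, at -0.30 ± 0.10 (adjusted p = 0.0422). Averaged over times, 4 of the 20 targets were higher and 4 lower, where 4.7% of all genes were higher and 6.8% lower, and the 3 with the smallest p were Gadd45a (0.25 ± 0.04, adjusted p = 5.79e-05), Cdkn1a (-0.19 ± 0.04, adjusted p = 0.00121) and Gabarapl1 (-0.14 ± 0.03, adjusted p = 0.00146).

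The lists upstream of FOXO were shorter, so their counts cannot be set directly against those of the targets. Of all genes, 6.13% were called as higher and 7.13% as lower at ZT16, and 4.7% and 6.8% for the average. Of 15 PI3K, AKT and mTOR genes, Pik3r2, a regulatory subunit of PI3-kinase, was higher at ZT16 (0.88 ± 0.15, adjusted p = 8.67e-05), and averaged over times Mtor (-0.19 ± 0.05, adjusted p = 0.00857), Pik3ca (-0.14 ± 0.05, adjusted p = 0.0410) and Akt2 (-0.10 ± 0.03, adjusted p = 0.0499) were lower. Of 10 brakes on insulin signalling, Ddit4, an inhibitor of mTOR complex 1 induced by stress, was higher by 1.21 ± 0.25 at ZT16 (adjusted p = 0.00107), and Socs3, which blocks receptor signalling, by 0.78 ± 0.16 (adjusted p = 0.000899). Of 9 receptors and adaptors, the adaptor Grb2 (-0.36 ± 0.11, adjusted p = 0.0263) and the receptor-related Insrr (-0.28 ± 0.08, adjusted p = 0.0212) were lower. Of 12 regulators of FOXO, Ywhag (-0.48 ± 0.10, adjusted p = 0.00160) and Ywhab (-0.26 ± 0.08, adjusted p = 0.0326) were lower, while Ywhaz did not pass (0.07 ± 0.05, adjusted p = 0.395). Ywhag, Ywhab and Ywhaz encode 14-3-3 proteins, which hold phosphorylated FOXO in the cytoplasm. Among 13 genes of the thioredoxin and arrestin list, Arrdc3, an arrestin relative of Txnip, was higher (0.95 ± 0.21, adjusted p = 0.00187), as was Arrdc2 (0.66 ± 0.19, adjusted p = 0.0158), while Txn1, the thioredoxin that TXNIP binds (-0.26 ± 0.05, adjusted p = 0.000971), and Hk2, a hexokinase (-0.53 ± 0.12, adjusted p = 0.00332), were lower.

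The counts in the next lists stand beside 6.13% of all genes called as higher and 7.13% as lower at ZT16. Around Klf2, 4 of 14 genes of the KLF list were higher at ZT16 and 0 lower, with Klf13 at 0.73 ± 0.16 (adjusted p = 0.00150), Klf11 at 0.52 ± 0.14 (adjusted p = 0.0114) and Klf9 at 0.11 ± 0.03 (adjusted p = 0.0224). Of 5 partners of TRIB1, only Cebpd, a C/EBP factor, was called, as higher (0.72 ± 0.09, adjusted p = 6.80e-07). The C/EBP factors Cebpa (-0.07 ± 0.18, adjusted p = 0.839) and Cebpb (0.01 ± 0.10, adjusted p = 0.954) did not pass. Neither did Map2k1 (-0.07 ± 0.16, adjusted p = 0.822) or Map2k4 (0.32 ± 0.20, adjusted p = 0.294). Of 17 immediate early genes, which are induced within minutes by growth factors and stress, 9 were higher at ZT16 and 0 lower. Among them were Btg2 (0.54 ± 0.08, adjusted p = 2.31e-05), Fosl2 (0.35 ± 0.06, adjusted p = 0.000268) and Junb (0.43 ± 0.08, adjusted p = 0.000414). The part of these transcripts, which also respond to cell isolation, in the ZT16 differences was not tested.

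**Figure D5:**
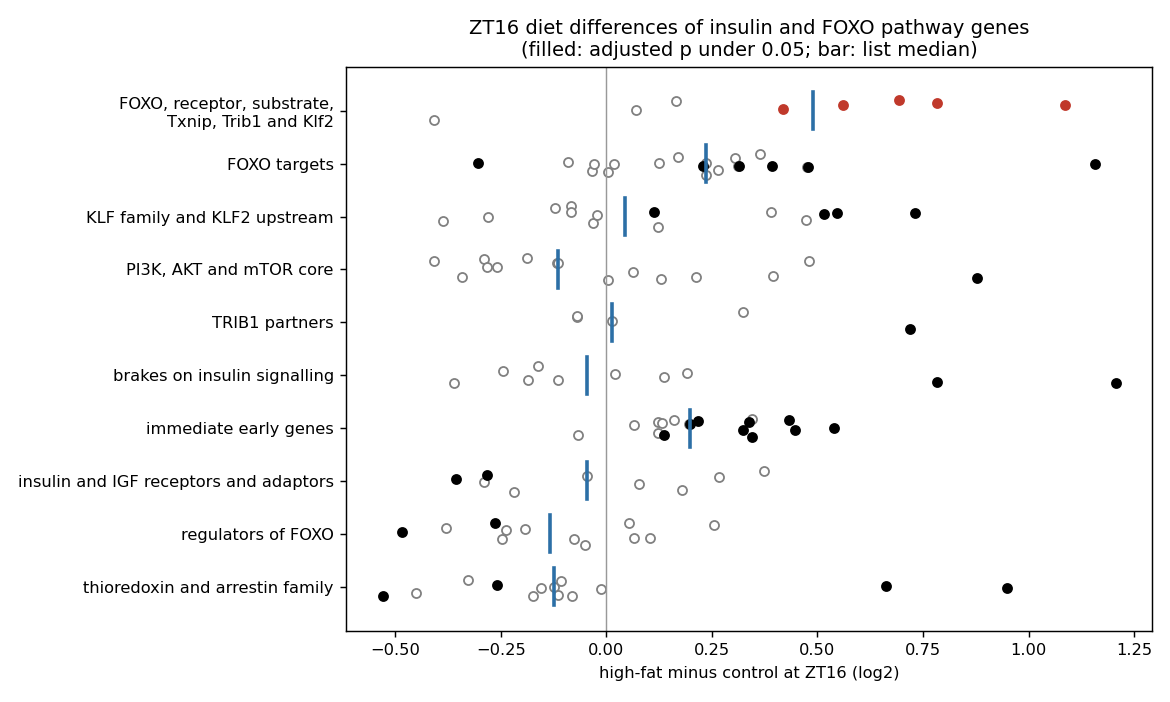
High-fat minus control difference at ZT16 (log2, x axis) of the 8 genes (top row, red where called) and of the 115 tested genes of 9 lists (rows). Filled points had an adjusted p under 0.05, and blue bars are list medians, 0.49 for the 8 genes and 0.24 for FOXO targets.

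Markers of other cells were compared at ZT16, where 13.3% of all genes were called. The mean log2 level of the endothelial markers was 6.27 to 6.39 in high-fat ZT16 mice and 6.11 to 6.18 in control ZT16 mice, with 0 of 6 tested genes called and 4 of 10 below the filter. That of 7 fibro-adipogenic markers was 8.62 to 8.77 in high-fat mice and 8.34 to 8.58 in control mice, with 0 of 5 tested genes called, and that of 5 adipocyte markers 5.56 to 5.82 in high-fat mice and 5.23 to 5.65 in control mice, with 1 of 2 tested genes called. Single adipocyte differences at ZT16 were 1.17 for Fabp4, 0.66 for Lipe, 0.08 for Lep, -0.02 for Retn and -0.24 for Adipoq, of which Fabp4, Lep and Adipoq lay below the filter. Fibro-adipogenic differences were 0.76 (Col1a1), 0.66 (Lum), 0.21 (Dcn), 0.17 (Col3a1), 0.14 (Pdgfra), -0.03 (Cd34) and -0.06 (Dpt), of which Lum and Pdgfra lay below the filter. Tested endothelial markers differed by 0.88 (Pecam1), 0.57 (Cdh5), 0.30 (Tek), 0.01 (Eng), -0.07 (Egfl7) and -0.14 (Flt1) at ZT16. For Pecam1 the lowest high-fat ZT16 mouse read 7.42 and the highest control ZT16 mouse 7.09, and for Cdh5 6.72 and 6.52. Every high-fat mouse thus lay above every control mouse for these genes, although neither was called. Each test took its spread from all groups, including control ZT20 replicate 2, which read 9.11 for Pecam1 and 9.57 for Cdh5. The other control ZT20 mice read 6.41 to 6.79 for Pecam1 and 6.54 to 7.06 for Cdh5. Whether these genes pass without that mouse is not reported here, so the missing calls do not show that the diets were alike. The mean level of 10 mature myofibre markers was 6.43 to 6.50 in high-fat mice and 6.28 to 6.46 in control mice, with 1 of 9 tested genes called. The mean level of 5 smooth muscle and pericyte markers was 8.39 to 8.96 in high-fat mice and 8.50 to 9.89 in control mice, with 0 of 5 called. They differed by -1.04 (Rgs5), -0.58 (Myh11), -0.50 (Pdgfrb), -0.25 (Acta2) and 0.06 (Kcnj8), and their part in the differences of the 8 genes was not tested. The mean level of 5 Schwann cell markers was 7.61 to 7.80 in high-fat mice and 7.54 to 7.68 in control mice, with 1 of 5 called. The endothelial and fibro-adipogenic ranges did not overlap between the diets at ZT16, and their part in the differences of the 8 genes, Klf2 among them, which endothelial cells express strongly, was not tested. In bulk RNA, fewer cells of a type and less RNA per cell cannot be told apart. The difference between 3' and 5' control probe sets, a measure of RNA quality, was -0.19 to -0.17 for Gapdh in high-fat ZT16 mice and -0.18 to -0.13 in control ZT16 mice, and the ranges overlapped. For beta-actin it was -0.49 to -0.38 in high-fat ZT16 mice and -0.43 to -0.31 in control ZT16 mice, which also overlapped. The high-fat ZT16 mean for beta-actin (-0.42) was the lowest of all groups, and its part in the diet differences was not tested.

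Likeness of course was described by Pearson's r over the 12 group means, which share arrays and normalization and carry no p. Among the 8 genes, Insr and Txnip were most alike (r = 0.877), followed by Txnip and Klf2 (0.741), while Irs1 and Foxo4 had r of at most 0.204 and 0.267 with any other of the 8. Of all tested genes, those most like Foxo3 were 4930570E01Rik (0.948), Wdfy2 (0.945) and Ifi30 (0.945), those most like Txnip were Map3k8 (0.890), Irx3 (0.889) and Clasp2 (0.887), and those most like Klf2 were Gm19710 (0.905), Dhdds (0.905) and Btg2 (0.903). Insr was most like 3930402G23Rik (0.932), Ift46 (0.931) and 2410006H16Rik (0.921), and Foxo1 was most like Pik3r2 (0.920), Cyp26b1 (0.882) and Tcl1b1 (0.876). Trib1 was most like Tnfaip6 (0.951), Gch1 (0.949) and Synpo (0.933), Irs1 most like Arhgef17 (0.907), Anxa4 (0.891) and 5930430L01Rik (0.878), and Foxo4 most like Fam219aos (0.924), Birc7 (0.873) and Tex22 (0.857).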

How the data were processed

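Total RNA of muscle stem cells from 47 mice was amplified as cDNA and measured on Affymetrix arrays, per the labels' protocols. The authors deposited 1 log2 value per probe set and mouse, and robust multi-array averaging (RMA) is named in the submitters' processing notes, with no version. Because RMA gives every array the same distribution, a change is seen against the bulk of genes, and it is compressed near background, where 23 non-specific controls had a median of 3.89. Precision is limited by the number of arrays.

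Of 45141 probe sets, 28898 carried 1 symbol, 551 several and 15692 none, and only the first kind was named. Per gene the probe set with the highest mean was kept, and genes with a mean under the 40th percentile (5.80) were left out. R 4.3.3 and limma 3.58.1 (lmFit, eBayes with an intensity trend, two-sided) were fitted on all 47 mice for 13 comparisons. Other probe sets were tested in a fit over probe sets. Replicate numbers did not pair mice (median correlation of deviations -0.02 for the same number and 0.02 for different numbers). Models were tested on simulated data in which a small part of the genes changed. A constant diet difference of size 0.4 was called at ZT16 for 19% of the changed genes, and one of size 0.2 for 4%. For the average over times these shares were 91% and 55%. A difference at a single time that did not pass is therefore no sign of its absence.

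The genes and lists were chosen with earlier results of these data known. Named list genes were taken from those with the 3 smallest p past the threshold in their list for the average, for ZT16 and for each rhythm. Not every such gene is named. Cdkn1a at ZT16 and Arrdc2 were named after their values were seen. Cebpa, Cebpb, Map2k1, Map2k4 and Ywhaz, which did not pass at ZT16, were also named outside this rule. The alternatives were another filter, normalization, variance prior, array weights, replicate block, probe set rule, fits by time, a day block and single mice left out.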

Additional observations from a re-analysis of the deposited data

Results flagged for a closer look

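Some results on the 8 genes met a rule for a second look. In groups of 4 mice, a mouse was singled out when its gap to the nearest other, divided by the range of the group, exceeded Dixon's 95% critical value. Of 88 groups tested 5 held such a mouse, and chance gives about 1 in 20. In high-fat mice these were the lowest Klf2 mouse at ZT4 (7.96, the nearest at 8.46) and the lowest Trib1 mouse at ZT12 (10.73, the nearest at 10.82). In control mice they were the highest Irs1 mouse at ZT16 (8.62, the nearest at 8.19), the lowest Trib1 mouse at ZT16 (11.03, the nearest at 11.25) and the highest Trib1 mouse at ZT0 (10.94, the nearest at 10.76).

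The diet difference changed with time, by the interaction test, for Foxo3 (adjusted p = 2.37e-07), Txnip (adjusted p = 1.01e-05), Insr (adjusted p = 0.0145) and Foxo1 (adjusted p = 0.0329). The 24 h rhythm differed between the diets for the highest-mean probe set of Txnip (adjusted p = 0.0225), while its other probe set did not pass (adjusted p = 0.0624).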

How the results depend on the processing

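For Txnip, Foxo3 and Klf2, the ZT16 calls held under all 8 alternatives and all 47 fits that left out a mouse each, with differences of 1.00 to 1.21 for Txnip, 0.75 to 0.82 for Foxo3 and 0.64 to 0.73 for Klf2 over those 47 fits. No value of a called result changed sign, and the cause of the changes below was not tested. Counts that follow are of all genes, or of the 8 genes where named. As reported, 365 genes were called at ZT0, 32 at ZT4, 183 at ZT8, 88 at ZT12, 1360 at ZT16, 84 at ZT20, 1180 for the average, 1276 for the interaction, 4115 for differences over time on the high-fat diet, 1731 and 1081 for the rhythm on the high-fat and control diet, and 216 for the rhythm difference. Without a filter, 314 genes were called at ZT8 and 57 at ZT12. With the filter at the 60th percentile, 20 were called at ZT4 and 1 of the 8 genes at ZT20. Array weights gave 11 at ZT4, 775 at ZT8, 2678 at ZT16, 2199 for the interaction, 2014 for the control rhythm, 597 for the rhythm difference (2 of the 8 genes) and 1 of the 8 genes at ZT20. The mean over probe sets gave 0 of the 8 genes at ZT0 (Insr -0.31, adjusted p = 0.125), 1 at ZT20 (Foxo3 -0.39, adjusted p = 0.00330) and 1 control rhythm (Foxo3 lost, adjusted p = 0.162). Fits of only the mice of a time gave 86 genes at ZT0 (0 of the 8), 0 at ZT4, 5 at ZT8, 0 at ZT12 and 4 at ZT20. Without the ZT16 mice 584 were called for the average (0 of the 8), 271 for the interaction (1 of the 8), 2472 for differences over time and 1062 for the rhythm on the high-fat diet, and 15 for the rhythm difference (0 of the 8). The collection day as a random block gave 580 rhythms on the high-fat diet and 289 on the control diet (0 of the 8), and a fit with cosine and sine terms but no time factor gave 22 rhythm differences (0 of the 8). Under cyclic loess, Insr at ZT0 missed the threshold (adjusted p = 0.0540) and Foxo3 at ZT0 passed it (0.24, adjusted p = 0.0335).

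With the replicate number as a block, which the numbers do not justify as a pairing, 56 genes were called at ZT12 and 105 for the rhythm difference. Of the 8 genes, Insr gained differences over time on the control diet (adjusted p = 0.0254), Foxo1 lost those on the high-fat diet (adjusted p = 0.0556), and no other call changed. The same gain of Insr came with the 60th-percentile filter (0.0427), cyclic loess (0.0495) and array weights (0.00764), and the same loss of Foxo1 without a filter (0.0501) and with array weights (0.0716).

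Leaving out each mouse, the genes called ranged from 122 to 426 at ZT0, 10 to 39 at ZT4, 58 to 215 at ZT8, 16 to 107 at ZT12, 598 to 1406 at ZT16, 41 to 100 at ZT20, 837 to 1392 for the interaction and 59 to 247 for the rhythm difference. The lowest at ZT16 (598), for the interaction (837) and for the rhythm difference (59) came without high-fat ZT16 replicate 3. Of the 8 genes, 0 to 1 were called at ZT0, 3 to 5 at ZT16, 0 to 1 at ZT20, 2 to 4 for the average, 1 to 2 for the control rhythm and 0 to 1 for the rhythm difference. With 3 or 4 mice a group, differences near the size of those of Foxo1 and Insr pass or miss with single mice.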

Other observations

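Rhythms were also counted in the lists, which hold KLF, immediate early and TRIB1 partner genes besides those of insulin signalling. The lists were chosen with earlier results of these data known, so the shares below are a description. Of the 115 tested genes of the lists, 34 had a called rhythm on the high-fat diet (29.6%) and 17 on the control diet (14.8%), against 16.9% and 10.5% of all genes. Pik3r1, the main regulatory subunit of PI3-kinase, had its crest at 12.98 ± 0.421 h in high-fat mice (amplitude 0.33 ± 0.04, adjusted p = 4.95e-08) and 13.6 ± 0.549 h in control mice (0.25 ± 0.04, adjusted p = 1.37e-05). Klf13 crested at 15.0 ± 0.399 h in high-fat mice (0.66 ± 0.07, adjusted p = 3.86e-08) and at 15.9 ± 0.600 h in control mice (0.44 ± 0.07, adjusted p = 7.02e-05). On the high-fat diet Sesn1 (13.8 ± 0.669 h, 0.46 ± 0.08, adjusted p = 0.000370), Socs3 (15.0 ± 0.671 h, 0.40 ± 0.07, adjusted p = 0.000500) and Ddit4 (13.9 ± 1.01 h, 0.50 ± 0.13, adjusted p = 0.0215) also passed. Sirt1, a deacetylase of FOXO proteins, crested at 11.8 ± 1.19 h in high-fat mice (0.21 ± 0.07, adjusted p = 0.0472) and at 7.33 ± 0.917 h in control mice (0.27 ± 0.06, adjusted p = 0.0128), and its average was lower on the high-fat diet, at -0.19 ± 0.06 (adjusted p = 0.0262). Time and collection day cannot be told apart in these rhythms. Of the 115 genes, 5 had a called rhythm difference between the diets (4.35%), against 2.11% of all genes. Which genes these were is not reported here, so the crests above describe each diet by itself and show no shift between diets.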
